A study of Rattus norvegicus with 2 samples.

Results

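The genes described here are 7 enzymes of cholesterol synthesis: Hmgcs1, Idi1, Fdps, Fdft1, Sqle, Cyp51 and Dhcr7. They were taken by gene name from the deposited table of transcripts, and the FPKM of a gene (fragments mapped to a transcript, divided by its length and by the depth of the library) was summed over its transcripts. All 7 were found, with 8 transcripts in total, among 22777 genes of the mRNA table. The RNA came from the hypothalamus of female Sprague Dawley rats in 2 groups that differed in stage, a prepubertal group on postnatal day 25 and a pubertal group on postnatal day 35, kept under the same housing with no treatment. Vaginal opening was the mark of puberty, and the authors took rats in their first estrus, judged by vaginal smear, as pubertal. The methods give 3 rats per stage, but only 1 FPKM column was deposited for each stage, with no statement of how the rats were combined. A stage is therefore treated as 1 library, differences have no replicate check, and age, pubertal stage and estrous phase cannot be told apart.

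Cholesterol in the brain is made locally, because lipoproteins of the blood hardly cross the blood-brain barrier. Myelin holds much of it, and glial cells and neurons need it for membranes and synapses. Synthesis starts from acetyl-CoA, runs through mevalonate to farnesyl diphosphate, continues through squalene to lanosterol, and ends with a series of sterol conversions. When membranes hold little sterol, the SREBP2 transcription factor (gene Srebf2) leaves the endoplasmic reticulum with its escort Scap and switches on most of these enzymes. Insig proteins hold Scap back when sterol is plentiful. Steroid hormones are made from cholesterol.

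Because the enzymes are known to be regulated together, promoters are shown first, for 3 members that hold the box of a known SREBP partner and for Dhcr7, which does not. RefSeq windows of 300 bases, from 250 before to 50 after an annotated start, were at hand for 5 of the 7 genes (Hmgcs1, Idi1, Fdps, Cyp51 and Dhcr7), and the promoters of Fdft1 and Sqle were not analysed here. Coordinates are on GRCr8, which is not the build of the deposited values. Each line reads 5′ to 3′ on the strand of the gene. Capitals mark each match on either strand of CCAAT, which reads ATTGG on the other strand and is the box bound by NF-Y, a partner of SREBP at sterol-regulated promoters, and of GGGCGG, the box bound by Sp1. In the Fdps line capitals also mark TCACACGAG, which lies within the sterol element known from the human promoter of this gene and was searched after the window had been read. The windows are chr2:53382054-53382353 on the + strand for Hmgcs1, chr2:176804767-176805066 on the - strand for Fdps, chr17:66547475-66547774 on the - strand for Idi1 and chr1:208444184-208444483 on the + strand for Dhcr7.

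Hmgcs1: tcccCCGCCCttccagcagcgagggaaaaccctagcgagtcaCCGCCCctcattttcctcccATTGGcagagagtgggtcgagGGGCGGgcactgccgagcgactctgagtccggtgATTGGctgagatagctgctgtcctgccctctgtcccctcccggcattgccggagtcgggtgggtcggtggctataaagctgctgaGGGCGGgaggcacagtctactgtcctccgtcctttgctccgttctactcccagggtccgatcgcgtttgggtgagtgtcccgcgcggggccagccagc
Fdps: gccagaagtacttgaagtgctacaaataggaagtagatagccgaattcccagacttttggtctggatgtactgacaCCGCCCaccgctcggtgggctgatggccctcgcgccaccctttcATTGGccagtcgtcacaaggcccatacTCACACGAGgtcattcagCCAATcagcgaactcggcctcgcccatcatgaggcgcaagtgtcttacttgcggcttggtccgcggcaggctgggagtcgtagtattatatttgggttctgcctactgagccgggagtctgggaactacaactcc
Idi1: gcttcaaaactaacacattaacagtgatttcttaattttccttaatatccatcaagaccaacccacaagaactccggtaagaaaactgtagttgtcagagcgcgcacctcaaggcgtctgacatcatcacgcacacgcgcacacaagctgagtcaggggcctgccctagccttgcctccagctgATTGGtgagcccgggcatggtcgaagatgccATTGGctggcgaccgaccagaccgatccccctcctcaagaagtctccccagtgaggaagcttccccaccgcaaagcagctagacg
Dhcr7: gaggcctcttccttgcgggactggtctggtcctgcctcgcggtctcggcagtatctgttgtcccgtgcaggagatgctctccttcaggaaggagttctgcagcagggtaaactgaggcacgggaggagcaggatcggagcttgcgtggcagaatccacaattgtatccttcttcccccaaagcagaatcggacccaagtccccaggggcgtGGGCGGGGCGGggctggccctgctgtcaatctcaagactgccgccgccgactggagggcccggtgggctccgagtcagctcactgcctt

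CCAAT was present in 3 of the 5 windows, with 2 matches each. In Hmgcs1 the matches began 188 and 133 bases before the annotated start, both on the strand opposite to the gene. In Fdps they began 130 bases before the start on the opposite strand and 85 bases before it on the strand of the gene. In Idi1 they began 66 and 35 bases before the start, on the opposite strand. The stretch TCACACGAG began 103 bases before the Fdps start, between its CCAAT matches, and was present in 41 of all 33469 promoter windows (0.123%). Dhcr7 and Cyp51 had no CCAAT in these windows and 2 matches of GGGCGG each, which overlap in Dhcr7. Hmgcs1 had 4 matches of GGGCGG, Fdps 1 and Idi1 none. Over the 16 of 21 pathway enzymes with a window, 13 held CCAAT and 14 held GGGCGG, against 37.5% and 33.1% of all windows. Among the 10932 windows whose gene had FPKM of at least 1 in 1 library, the shares were 36.8% for CCAAT and 60.7% for GGGCGG. The classical sterol element TCACNCCAC, on either strand, was in 0 of the 16 enzyme windows and 1.12% of all windows. A match is a run of letters and not a measured site, and these data hold no measurement of binding.

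The levels of the enzymes spanned a wide range that was nearly the same in both libraries. Hmgcs1 (ENSRNOG00000016552), which joins acetyl-CoA to acetoacetyl-CoA, was the highest, with 353 FPKM in the prepubertal library and 327 FPKM in the pubertal library. Fdps (ENSRNOG00000043377), which makes farnesyl diphosphate, was next, with 229 and 236 FPKM. Cyp51 (ENSRNOG00000007234), the lanosterol demethylase, followed with 138.5 and 137 FPKM. These 3 genes stood above all the other members in both libraries.

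Idi1 (ENSRNOG00000016690), which converts isopentenyl diphosphate to its isomer, had 71.4 FPKM before puberty and 66.2 FPKM at puberty. Fdft1 (ENSRNOG00000021314), squalene synthase and the committed step towards sterols, had 71.0 and 77.7 FPKM. Idi1 and Fdft1 were the only pair of members whose order differed between the libraries. Before puberty their intervals of counting error overlapped, 67.7 to 75.3 FPKM for Idi1 and 68.9 to 73.1 FPKM for Fdft1, whereas at puberty they did not, 62.2 to 70.4 FPKM and 75.2 to 80.3 FPKM.

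Sqle (ENSRNOG00000009550), the epoxidase that opens the sterol part of the pathway, had 44.8 FPKM before puberty and 37.2 FPKM at puberty. Dhcr7 (ENSRNOG00000020776), which reduces 7-dehydrocholesterol to cholesterol, was the lowest member with 19.98 and 16.4 FPKM. The highest member exceeded the lowest 17.7-fold in the prepubertal and 19.9-fold in the pubertal library. Among the 14029 genes with FPKM of at least 1 in 1 library, Hmgcs1 stood at percentile 97.7 of the prepubertal levels, Fdps at 96.4, Cyp51 at 94.1 and Dhcr7 at 60.8.

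**Figure D1:**
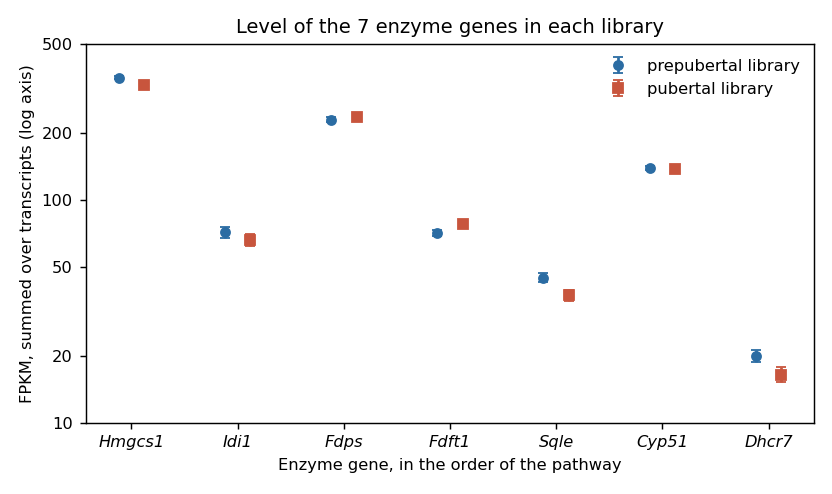
FPKM of the 7 enzyme genes (log axis) in the prepubertal library (circles) and the pubertal library (squares), in pathway order, with bars for the 95% interval of counting error. Hmgcs1 is the highest at 353 and 327 FPKM and Dhcr7 the lowest at 19.98 and 16.4 FPKM, and Idi1 and Fdft1 change places.

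The number of fragments behind these levels was estimated from the steps in the low FPKM values. In genes with 1 transcript, FPKM times the length less 255 nt (prepubertal) or 250 nt (pubertal) fell on whole multiples of a smallest value, within 0.1 of a whole number for 96.3% of 1606 low values in the prepubertal library and for 95.7% of 1757 in the pubertal library. The smallest step that follows is 0.0484 before puberty and 0.0622 at puberty, so 1 fragment weighs more in the pubertal library, which was less deeply sequenced. By this measure Hmgcs1 rests on 21491 and 15501 fragments, and Dhcr7, the least covered member, on 1024 and 657. The intervals given here are 95% intervals for these fragment numbers. They cover counting error only and hold nothing of the spread between rats, and fragments copied by PCR are not independent.

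The comparison of the libraries asks whether enzyme levels were lower or higher at puberty. Differences are given as a log2 ratio of pubertal to prepubertal FPKM after adding 1 to both, which draws low values towards 0. Of the 7 members, 5 were lower at puberty and 2 higher on the deposited scale, but 4 were lower after scaling to equal medians and 0 after scaling to equal Actb. Of the 14029 genes, 51.1% were lower at puberty on the deposited scale, 43.1% with equal medians and 10.2% with equal Actb, since a scaling factor moves all genes alike. After centring within length classes, which sets that share to 50%, 5 members were lower. The median log2 ratio of the members was -0.11, beside -0.0065 for all genes. In bulk RNA such as this, fewer cells of a type and less RNA per cell cannot be told apart.

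On the deposited scale Dhcr7 had the largest difference, a log2 ratio of -0.27, which is a ratio of 0.823 between the FPKM values (95% counting interval 0.745 to 0.908). Sqle was next with a log2 ratio of -0.26 and a ratio of 0.831 (0.771 to 0.896). Both lie in the later, sterol part of the pathway, as does Cyp51 with a log2 ratio of -0.015. Their log2 ratios stood at percentiles 15.4 and 15.9 among all genes.

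Hmgcs1 had a log2 ratio of -0.11 and a ratio of 0.925 (0.906 to 0.945), and Idi1 a log2 ratio of -0.11 and a ratio of 0.927 (0.854 to 1.01). The interval of Hmgcs1 excludes 1, while that of Idi1 includes it. Cyp51 had a log2 ratio of -0.015 and a ratio of 0.989 (0.959 to 1.02).

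Fdps had a log2 ratio of 0.044 and a ratio of 1.03 (0.990 to 1.07). Its transcripts differed in direction. The 1271 nt transcript ENSRNOT00000065065, with 92.4% of the Fdps FPKM before puberty and 94.3% at puberty, went from 212 to 223 FPKM. The 2640 nt transcript ENSRNOT00000033917 went from 17.4 to 13.5 FPKM. Transcripts of 1 gene can share fragments, so this split rests on how Cuffdiff assigned them. The other 6 members have 1 transcript each in the table.

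Fdft1 was the member with the largest positive difference, a log2 ratio of 0.13 and a ratio of 1.10 (1.05 to 1.15), at percentile 73.3 among all genes.

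No member passed a 1.5-fold difference in FPKM + 1 in either direction, beside 4.65% of all genes, of which the lower ones were 2.65% of all genes. At 1.2-fold, 1 of 7 members passed, Dhcr7 in the lower direction, beside 15.7% of all genes in that direction and 27.4% in either. Sqle lay just short of 1.2-fold in FPKM + 1 and past it with a pseudocount of 0.1, where 2 of 7 members passed beside 18.5% of all genes. The log2 ratios of the members ranged from -0.27 to 0.13 (SD 0.15 over genes), and the quartiles of all genes were -0.17 and 0.14.

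**Figure D2:**
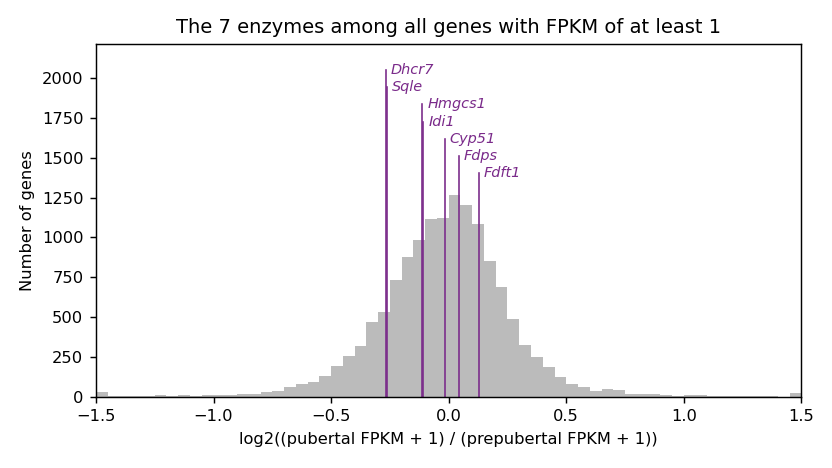
Number of genes (grey bars) by log2 ratio for the 14029 genes with FPKM of at least 1 in 1 library, with a line for each of the 7 enzymes, and values beyond 1.5 counted in the end bars. All 7 enzymes lie between -0.27 and 0.13, with Dhcr7 and Sqle below the lower quartile of all genes at -0.17.

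The sign of these ratios depends on how the libraries are set against each other, whereas a factor common to all genes leaves the FPKM ratio of one member to another as it is. Actb, the gene to which quantitative PCR was normalized in the study, had 763 FPKM before and 576 FPKM at puberty (log2 ratio -0.40). With Actb made equal, which multiplies the pubertal FPKM by 1.32, the log2 ratios of the members ran from 0.12 to 0.53. With equal medians, a factor of 1.04, they ran from -0.21 to 0.18, and Cyp51 turned from lower to higher. The medians were those of 16709 genes above 0 in both libraries, including genes below the FPKM minimum. The log2 ratio also varied with mRNA length over all genes, with class medians from 0.075 for the shortest of 10 length classes to -0.13 for the longest. When the log2 ratios were centred within these classes, Fdps became -0.011, Cyp51 0.041, Idi1 -0.16 and Fdft1 0.19, while Sqle and Dhcr7 stayed at -0.27 and -0.24.

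**Figure D3:**
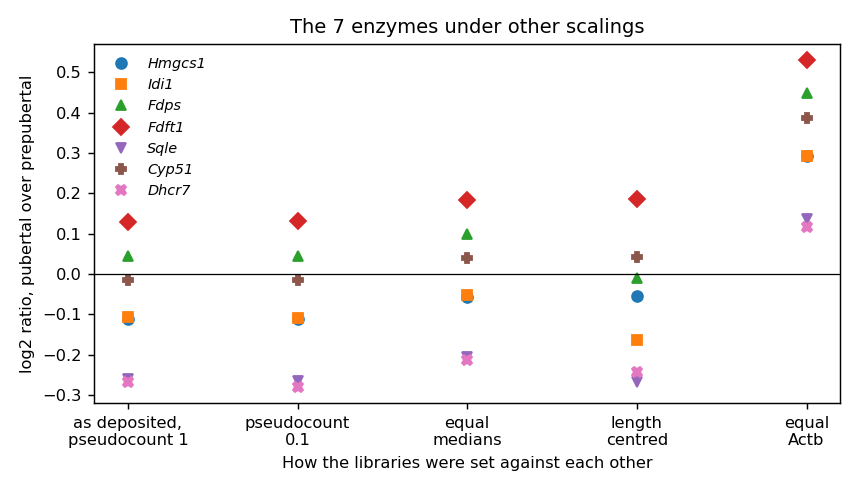
Log2 ratio (pubertal over prepubertal) of each of the 7 enzymes on the deposited scale and under 4 other settings, with a line at 0. All points lie above 0 with equal Actb, while Sqle and Dhcr7 stay lowest and Fdft1 highest in each setting shown.

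Within a library the ratio of one enzyme to another is free of library scaling, but not of the trend with mRNA length. Of the 21 pairs of members, 15 had a counting interval of the log2 difference without 0. Those given here are the pairs with the largest and smallest differences. Fdft1 was 1.58 times as high as Sqle before puberty and 2.09 times as high at puberty, a log2 difference of 0.40 (95% counting interval 0.27 to 0.52). Squalene synthase and squalene epoxidase act in succession. Fdft1 against Dhcr7 went from 3.55 to 4.73, a log2 difference of 0.41 (0.26 to 0.57). Hmgcs1 against Idi1 was 4.94 before and 4.93 at puberty, with an interval of the log2 difference from -0.12 to 0.12. These genes differ in length, and after length centring their log2 ratios were -0.055 and -0.16. Sqle against Dhcr7 was 2.24 and 2.26, with an interval from -0.16 to 0.19. Without replicate animals, the spread of such ratios between rats is unknown.

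The other enzymes of the pathway, 14 on a list drawn up for comparison, were measured in the same libraries, and all had FPKM of at least 1. Of these 14, 10 were lower and 4 higher at puberty, and 2 passed 1.5-fold, both lower, beside 51.1% of all genes lower and 2.65% past 1.5-fold lower. Of these calls 1 was left with equal medians, with length centring or with equal Actb, and with equal Actb it was that of Lss and rested on the 180 nt transcript described below. The share of all genes past 1.5-fold lower was not counted under these settings. The median log2 ratio was -0.17. Over all 21 enzymes, 15 were lower, and 2 were lower with Actb made equal, beside 10.2% of all genes.

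Among the early enzymes, Pmvk, the phosphomevalonate kinase, went from 75.5 to 87.1 FPKM (log2 ratio 0.20), and Mvd, the diphosphomevalonate decarboxylase before Idi1, from 31.7 to 27.4 FPKM (-0.20). Mvk, the mevalonate kinase, and Acat2, the thiolase of the cytosol, had log2 ratios of 0.052 and -0.0051.

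Among the late enzymes, Lss, the lanosterol synthase between Sqle and Cyp51, had the largest difference. Its summed FPKM went from 3959 to 1451, a log2 ratio of -1.45, but 3903 and 1416 FPKM of this belong to a single transcript of 180 nt, which is below the 255 and 250 nt that had to be taken off transcript lengths to give whole fragments. Its other 3 transcripts sum to 56.7 and 34.6 FPKM, a log2 ratio of -0.70. Hsd17b7 (a keto reductase), Tm7sf2 (a sterol reductase), Ebp (an isomerase), Nsdhl (a dehydrogenase) and Sc5d (a desaturase) had log2 ratios of -0.28, -0.24, -0.18, -0.17 and -0.079. Msmo1, the methyl sterol oxidase that acts after Cyp51, was higher, with 168 and 187 FPKM (0.15), and Lbr, a sterol reductase of the nuclear envelope, had a log2 ratio of 0.051.

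**Figure D4:**
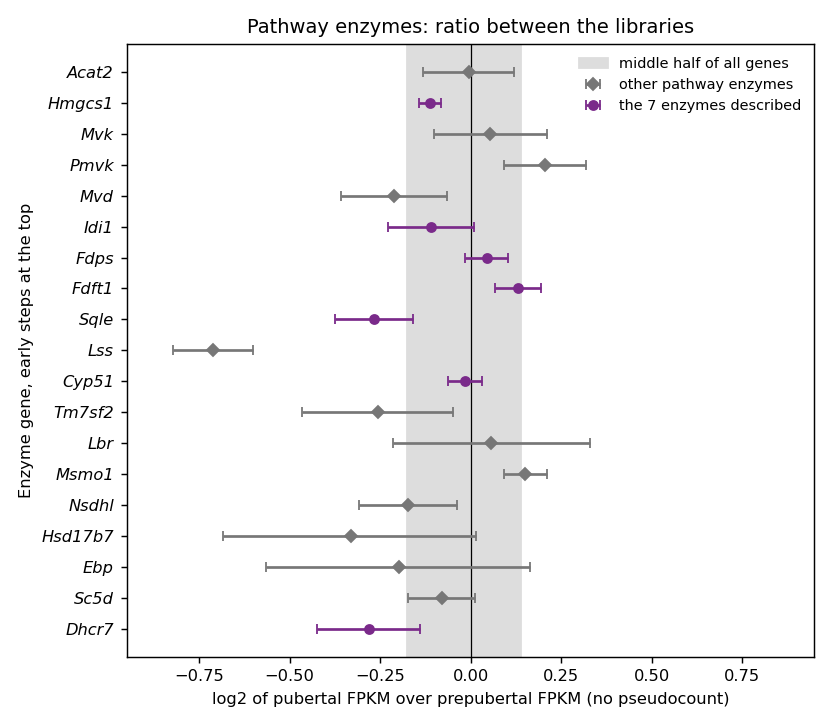
Log2 of pubertal over prepubertal FPKM, with no pseudocount, for 19 of the 21 pathway enzymes in approximate pathway order, with bars for the 95% interval of counting error and a grey band between the quartiles of all genes. Lss is drawn without its 180 nt transcript, and it stands furthest below 0 of those drawn, at a ratio of 0.611.

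Of 9 regulators of the pathway, 4 were lower and 5 higher, with a median log2 ratio of 0.012. Taking only the transcript with the highest FPKM of each gene, 5 were lower and the median was -0.076. Srebf2, which encodes SREBP2, went from 44.7 to 39.8 FPKM (log2 ratio -0.16), and Srebf1 from 17.2 to 17.3 FPKM (0.012). The main Srebf1 transcript, ENSRNOT00000004753, had a log2 ratio of -0.086 and the minor one, ENSRNOT00000047053, at 0.998 and 2.15 FPKM, one of 0.66. Insig1, itself a target of SREBP2, went from 79.95 to 82.3 FPKM (0.042), Insig2 from 29.2 to 29.8 FPKM (0.029) and Scap from 27.4 to 25.9 FPKM (-0.076). Of the proteases that release SREBP, Mbtps1 had a log2 ratio of 0.11 and Mbtps2, at 3.49 and 2.68 FPKM, one of -0.29. Rnf139, a ubiquitin ligase of the endoplasmic reticulum, had a log2 ratio of -0.11. None of these 9 genes passed 1.5-fold on the deposited scale, beside 4.65% of all genes. With Actb made equal 0 were lower, beside 10.2% of all genes.

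Enzymes that share substrates with the members were set beside them. Fdps exceeded Ggps1, which extends farnesyl diphosphate for protein prenylation, 10.9-fold before puberty and 10.5-fold at puberty. Idi2, the relative of Idi1, was listed at up to 0.423 FPKM in 1 gene entry and at 0 in the other. Of the 7 genes of this list, 5 were lower (3 with equal medians and 1 with equal Actb), from Pdss1 (log2 ratio -0.52), of ubiquinone synthesis, to Pdss2 (0.15). The shares of all genes that were lower were 51.1%, 43.1% and 10.2% in the same order.

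Uptake, export and fatty acid genes gave the wider setting. Of 9 genes of sterol uptake and transport at the FPKM minimum, 7 were lower, from Lrp1 (log2 ratio -0.47), a large lipoprotein receptor, to Vldlr (0.23). Their median was -0.20, or -0.075 with the highest transcript of each gene. Of 10 genes of sterol export and turnover, 7 were lower, and 51.1% of all genes were lower. With equal Actb, 1 gene was lower in each of these lists, beside 10.2% of all genes. Cyp46a1, the neuronal hydroxylase through which the brain disposes of cholesterol, went from 49.4 to 36.3 FPKM (-0.44), and Cyp27a1 was at the other end (0.28). Apoe, the lipoprotein of astrocytes, was at 4231 and 4648 FPKM. All 8 gene entries found of the fatty acid enzymes were lower on the deposited scale, from Elovl6 (-0.44) to Fads1 (-0.015). Another of these entries, also of Elovl6, was at -0.37, and Scd and Scd2 were not found. The median of the entries was -0.12 and became 0.27 with Actb made equal, where 1 was lower. None of these 3 lists had a gene past 1.5-fold on the deposited scale, beside 4.65% of all genes.

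Markers of the cell types that make or use brain cholesterol were read in the same libraries. Beside them, 51.1% of all genes were lower on the deposited scale and 10.2% with equal Actb. Of 10 markers of oligodendrocytes and myelin, 6 were lower (0 with equal Actb) and 4 higher, with a median log2 ratio of -0.17 and summed levels of 13280 and 14253 FPKM, from Opalin (-0.38) to Mobp (0.29). The 6 markers of progenitors and new oligodendrocytes were all lower on the deposited scale and 2 with equal Actb, with summed levels of 134 and 99.96 FPKM and a median of -0.27. Gpr17, which marks newly forming oligodendrocytes, went from 38.2 to 21.1 FPKM (-0.83). Astrocyte markers had a median of 0.0037, from Gja1 (-0.67) to Aldh1l1 (0.34), and sums of 1278 and 1134 FPKM, with Slc1a2 the highest at 374 and 258 FPKM. Neuronal markers were lower in 5 of 6, or 2 with equal Actb, from Rbfox3 (-0.48) to Map2 (0.13), with sums of 1933 and 1793 FPKM and Snap25 the highest at 654 and 628 FPKM. The part of any cell type in the enzyme differences was not tested.

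**Figure D5:**
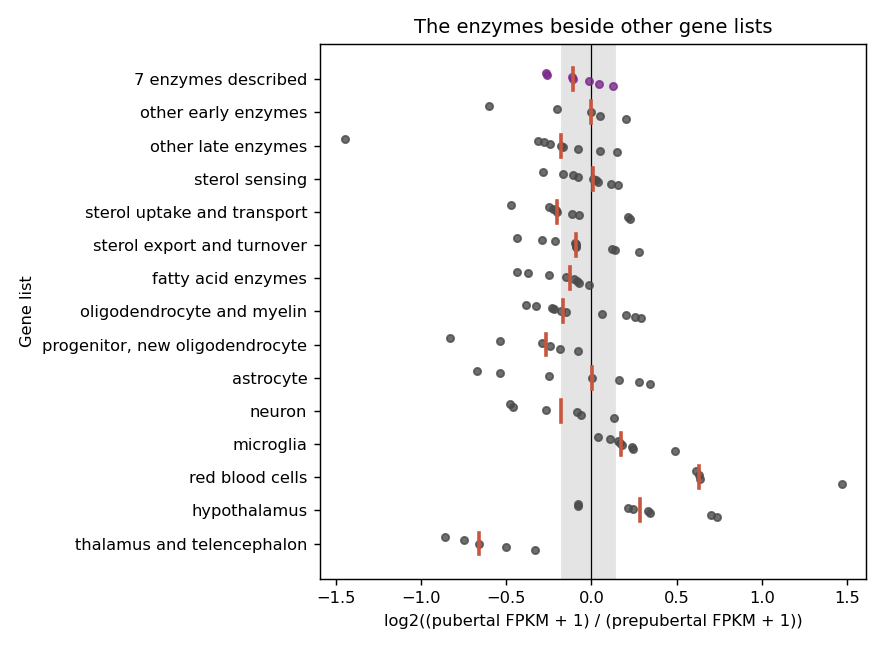
Log2 ratio of each gene (points) with FPKM of at least 1 in 1 library, by gene list, with the list median as a vertical bar and a grey band between the quartiles of all genes. The 7 enzymes lie at a median of -0.11, inside the band. Of the other lists drawn, the medians of the other late enzymes, sterol uptake, progenitor, neuron, and thalamus and telencephalon lists lie below it and those of microglia, red blood cells and hypothalamus above it.

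The libraries also differed in other markers, beside 51.1% of all genes lower on the deposited scale and 10.2% with equal Actb. Hypothalamic peptide genes were present at high levels (Pmch 1675 and 2723 FPKM, Oxt 411 and 686 FPKM), with a median log2 ratio of 0.29 over 8 markers, of which Avp and Nkx2-1 were lowest at -0.081 and -0.078. Markers of thalamus and telencephalon were lower at puberty in 5 of 5 at the FPKM minimum, or 4 with equal Actb, from Neurod6 (-0.86) to Prkcd (-0.33), the highest at 108 and 85.3 FPKM, with sums of 160 and 116 FPKM. Red blood cell genes were higher in 4 of 4, with sums of 6406 and 12539 FPKM and ratios from Alas2 (0.61) to Hbb (1.47). Microglial markers were higher in 8 of 8 on the deposited scale, with 1 lower after length centring, from C1qb (0.037) to Aif1 (0.49), with C1qa the highest at 80.4 and 95.4 FPKM and sums of 268 and 316 FPKM. Endothelial markers had a median of -0.11, from Pecam1 (-0.21) to Flt1 (0.13), with Cldn5 the highest at 70.9 and 65.5 FPKM. Choroid plexus markers had a median of 0.21, from Kcnj13 (-0.36) to Aqp1 (0.53), but lower summed levels at puberty, 36.9 and 32.3 FPKM, most of which is Ttr. Pituitary markers had a median of 0.27 at sums of 31.6 and 44.4 FPKM, mostly Cga, with Lhb lowest (-0.093) and Prl listed at 0 and 3.40 FPKM. Reference genes for quantitative PCR ran from Actb (-0.40) to Hprt1 (0.26), a range wider than that of the 7 enzymes. Whether the share of surrounding tissue or blood in the dissected piece bears on the enzyme values was not tested.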

How the data were processed

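Hypothalamic RNA was depleted of ribosomal RNA, and strand-specific paired-end libraries were sequenced. The authors used TopHat for alignment, Scripture and Cufflinks 2.1.1 for assembly, and Cuffdiff 2.1.1 for the deposited FPKM per transcript. Per the labels the build is Rnor_5.0, while the methods point to a later annotation. A further deposited table holds gene names, lengths and the authors' fold changes, p-values and q-values, and those comparison columns were not used. FPKM of 13 transcripts differed between the tables, 0 of them of pathway enzymes.

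FPKM was summed per gene. With 1 library per stage no test was run. Genes needed FPKM of at least 1 in 1 library, the pseudocount was 1, and a difference counted as past the limit at 1.5-fold. Fragment numbers were estimated from low values of 1 to 6 fragments, after taking 255 nt and 250 nt off the length, and exact conditional intervals were derived from them, or normal ones for differences between members. The scripts were tested on simulated data. The members and lists were chosen with earlier results of these data known. All members, early and late enzymes, regulators, Actb and relatives of members were named, and of other lists the genes at FPKM of at least 1 with the largest rise and fall and, for markers, the highest level. Apoe and Ggps1 were added after their values were seen, and some genes that the rule names are not reported here. Tables of long non-coding RNA were not used. Scripts ran in Python 3.11.15 with scipy 1.17.1, pandas 2.3.3, numpy 2.4.6 and, for figures, matplotlib 3.10.9.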

Additional observations from a re-analysis of the deposited data

How the results depend on the processing

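No paired analysis was possible because each stage has 1 library. The median log2 ratio of the 7 enzymes, -0.11 as deposited, was -0.052 with equal medians, -0.055 when centred within length classes and 0.29 with equal Actb, where 0 were lower. Over all 21 enzymes it was -0.056, -0.16 and 0.29 in the same order, and 2 were lower with equal Actb, beside 10.2% of all genes. Of the 21, 1 was past 1.5-fold lower under each of these 3 settings, and 1 was higher with equal Actb. The share of all genes past 1.5-fold was not counted under these settings. At 1.2-fold, 1 of the 7 and 5 of the 21 were past the limit on the lower side, beside 15.7% of all genes. At 2-fold 1 of the 21 was past it, and the share of all genes at 2-fold was not counted. Leaving out the 180 nt transcript of Lss, which was chosen after seeing the data, gave 1 past 1.5-fold lower with equal medians, 1 with length centring and 0 with equal Actb, where 1 was higher, and 5 at 1.2-fold and 0 at 2-fold. With a pseudocount of 0.1, also chosen after seeing the data for this limit, 2 of the 7 were past 1.2-fold lower, beside 18.5% of all genes. A pseudocount of 0.1, the transcript with the highest FPKM per gene and the FPKM of the comparison table left all 7 members within their counting intervals. Equal medians and length centring left 5, and equal Actb 0. Filters on FPKM (none, 0.1 or 10) left both medians within 0.05 of their main value. Of the 19 other lists, 10 medians changed sign with equal Actb, 2 with equal medians and 1, that of the regulators, with the highest transcript. The search with CACNCCAC gave 2 of 16 enzyme windows in place of 0, beside 5.80% of all windows. Without the 180 nt transcript the median of the late enzymes was within 0.05. The files give no fragment numbers, so those used here are estimates.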
